A study of Homo sapiens with 4 samples.

Results

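The genes described here are 38 members of the homologous recombination and Fanconi anaemia pathways, taken as the rows whose gene symbol equals a listed member, out of 20323 gene rows. Where 2 rows carried the same symbol the row with the larger summed count was used, which applied to RAD50 and RAD51D. All 38 symbols were found, and all 38 passed the filter on low counts that left 12560 genes for testing. The data are ribosome footprint counts, that is, sequenced fragments of messages protected by ribosomes, from HCT-8, an established human colorectal carcinoma line, in a form resistant to 5-fluorouracil (5-FU). The control group (NC) received a negative control plasmid and the other group (OE) received a plasmid for overexpression of METTL14, the RNA-binding partner of the N6-methyladenosine writer METTL3. All cells were 5-FU-resistant and all were treated with cycloheximide at 100 ug/mL, which holds ribosomes in place. Each group had 2 libraries from experiments that the series design describes as independent. The sources used here give neither the time after transfection nor whether the resistant line is 1 clone. The comparison asks which messages carried more or fewer footprints when METTL14 was overexpressed.

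Homologous recombination repairs a double-strand break by copying an intact sister chromatid: the ends are cut back to single strands, a recombinase filament is loaded with the help of BRCA2 and its partners, and the joined molecules are later taken apart by helicases or nucleases. The Fanconi pathway recognises interstrand crosslinks at stalled forks, attaches ubiquitin to FANCD2 and FANCI, and hands the unhooked lesion to nucleases and to recombination. These genes are known for their expression in cycling cells, and defects in them make tumour cells sensitive to drugs that damage replicating DNA.

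Deposited counts summed to between 7742274 in OE replicate 1 and 24392875 in the other OE library. The members had from 43 to 3088 counts in a library. For RAD51B in OE replicate 1, the lowest of them, the exact Poisson 95% interval was 2.96 to 5.51 CPM, which here means counts scaled by library size and TMM factor, an interval that covers counting error only. The NC libraries had a standard deviation of 0.46 for the log2 difference between replicates over all tested genes, and the OE libraries 1.30; over the members these were 0.30 and 0.87. METTL14 had 44.6 and 47.6 CPM in NC versus 448 and 91.2 CPM under OE (replicates 1 and 2), so both OE libraries lay above both NC libraries, in unequal measure. Its log2 fold change of 2.55 (SE 0.81) had a Benjamini-Hochberg adjusted p of 0.734 in edgeR's quasi-likelihood fit. Of 12 colorectal epithelial markers all were measured, with EPCAM at 554 to 1453 CPM and KRT8 at 2595 to 10639 CPM. Of 12 markers of blood, fibroblast, endothelial and liver cells, 3 passed the filter (CD68, COL1A1 and PDGFRB), and CD3E and CDH5 were at 0 in every library. The summed level of those 12 markers was lower in both OE libraries (80.8 and 86.0 CPM for NC, 49.0 and 32.1 CPM for OE), most of it from CD68. Of the epithelial markers, 7 were below both NC libraries in each OE library (20.4% of all tested genes) and 2 were above (19.9%). Their median log2 fold change was -0.60, and CLDN3 (-1.64), CLDN4 (-1.55), VIL1 (-1.09) and CDH1 (-0.87) were the lowest. The epithelial markers had a high median NC level, 7.74 log2 CPM. With all tested genes cut into 10 equal groups by NC level, 34.6% and 45.0% of groups 9 and 10 were lower likewise. In OE replicate 1 the markers' median difference from the NC mean was -1.30, and -0.32 with cyclic loess normalization. In OE replicate 2 these were -0.14 and -0.16. The summed level of the epithelial markers, mostly KRT8 and KRT18, was 22187 and 21602 CPM for NC and 6388 and 24724 CPM for OE. The part of either marker list in the members' values was not tested.

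Footprints of recombination and Fanconi genes lay mostly higher in the OE libraries, without any gene passing the test. Both OE libraries were above both NC libraries for 19 of 38 members, against 19.9% of all tested genes. Both were below for 0 members, against 20.4% of all tested genes. Among the 19, the Poisson 95% intervals of OE replicate 2 and the higher NC library overlapped for BRCA1, FANCA, FANCC, RAD54L and MUS81. For BRCA1 they were 33.3 to 38.3 against 31.5 to 37.1. Those of OE replicate 1 overlapped likewise for FANCE and XRCC2. The count of 19 thus includes gaps near or within counting error. These intervals were not compared over all tested genes. The log2 fold change was above 0 for 34 members, against 56.2% of all tested genes. Its median was 0.64 over the members and 0.09 over all tested genes. With edgeR's quasi-likelihood test and Benjamini-Hochberg adjustment, 0 members passed at 0.05 and 0% of all genes did. At an unadjusted p below 0.05 there were 6 members, beside 5.5% of all genes: RAD52, XRCC3, BRIP1, FANCL, FAN1 and FANCM, all higher in OE. In these bulk libraries, a change in the number of cells that carry a message and a change in the footprints of each cell cannot be told apart, and neither can message amount and ribosome loading, since no total RNA was analysed here.

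The higher values came from both OE libraries. In OE replicate 1, 27 of 38 members were above both NC libraries (46.7% of all tested genes), and in OE replicate 2 another count of 27 was reached (42.8% of all tested genes). Below both NC libraries were 6 members in OE replicate 1 (45.5% of all tested genes) and 7 in OE replicate 2 (42.5%). Against the NC mean, 23 members were above it in each OE library (25.8% of all tested genes) and 2 were below it in each (24.9%). The median difference from the NC mean was 0.72 in OE replicate 1 and 0.50 in the other OE library on the log2 CPM scale, against 0.02 and 0.00 over all tested genes and 0.00 between the members' NC libraries. The members showed 4 patterns. The 19 that were above both NC libraries in each OE library were FANCA, FANCB, FANCC, FANCE, FANCG, FANCL, FANCM, BRCA1, BRIP1, RAD52, RAD51D, XRCC2, XRCC3, RAD54L, BLM, MUS81, EME1, GEN1 and FAN1. A further 8 were above in OE replicate 1 only: FANCD2, MRE11, RBBP8, BARD1, BRCA2, PALB2, WRN and SLX4. Another 8 were above in OE replicate 2 only: FANCF, UBE2T, FANCI, NBN, RAD51C, TOP3A, RMI1 and RMI2. RAD50, RAD51B and RAD54B were above in neither.

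**Figure D1:**
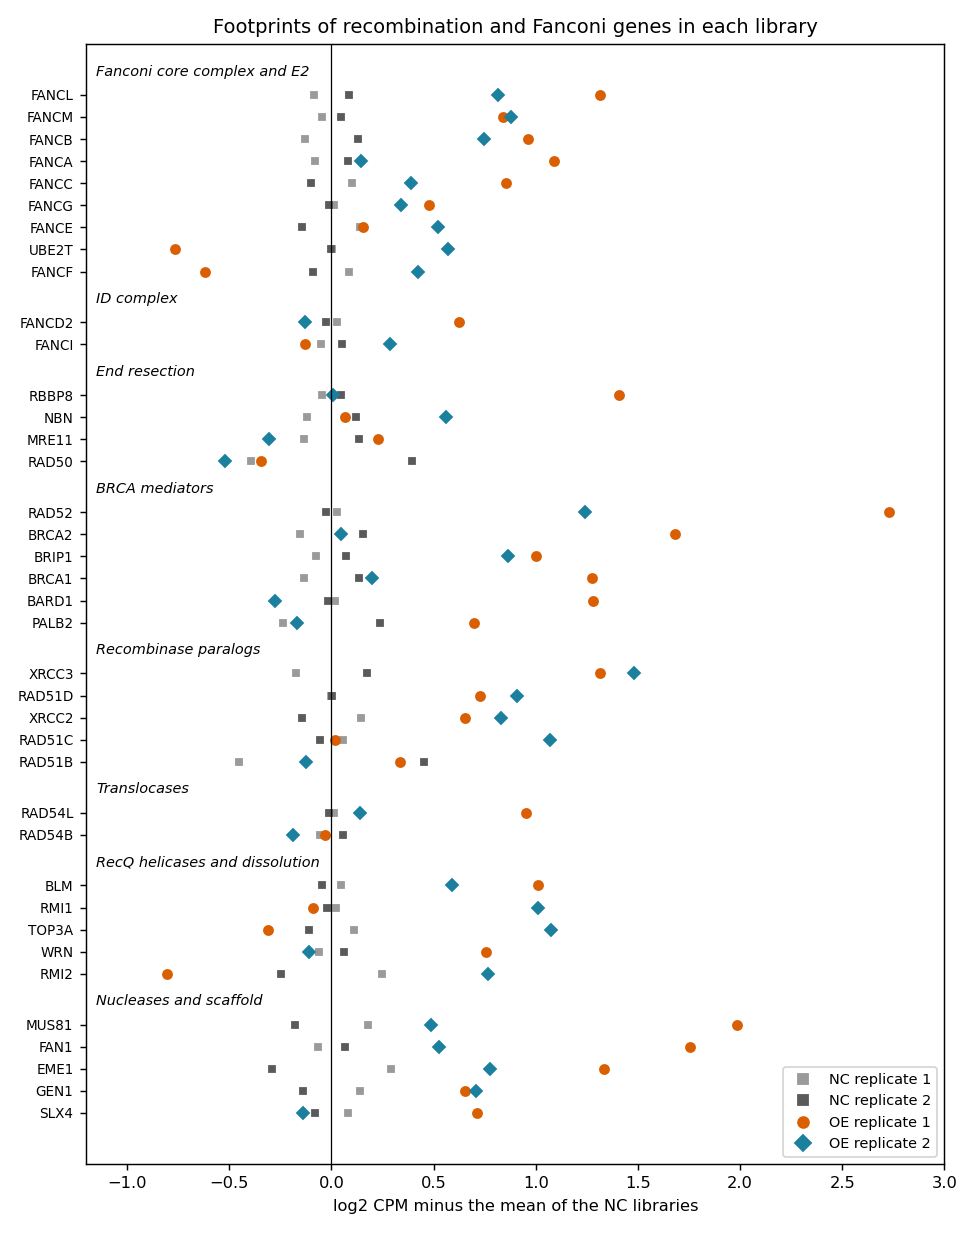
Each row is a gene, grouped by role, and each point a library: the x axis gives log2 CPM minus the mean of the NC libraries, with squares for NC and an orange circle and a blue diamond for OE replicates 1 and 2. In 19 of the 38 rows both OE points lie to the right of both NC points and in 0 rows both lie to the left; FANCF, UBE2T, MRE11, RAD51B, RAD54B and RMI2 change the sign of their log2 fold change under at least 1 other setting tried on all 4 libraries.

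The level of a gene in control cells moved with its change in OE replicate 1. With all tested genes cut into 10 equal groups by NC level, the median difference in that library ran from 1.16 in group 1 (lowest level) to -1.08 in group 10, while in OE replicate 2 the groups stayed between -0.09 and 0.07. The members sat in groups 2 to 9. The 21 members in groups 2 to 4 were at medians of 0.85 and 0.59 in OE replicates 1 and 2, where all genes of those groups had 0.56 and 0.03. The 12 members in groups 5 to 6 had 0.49 and 0.17, against 0.15 and 0.04 for all genes there. The 5 members in groups 7 to 9 (FANCG, FANCD2, FANCI, RAD50 and UBE2T) had -0.13 and 0.29, against -0.37 and -0.01. In each of these ranges the members' median was above that of all genes in both OE libraries. Single groups were less even. The 5 members of group 5 had medians of 0.23 and -0.11, below the 0.29 and 0.07 of all genes there. The 1 member of group 8, FANCD2, was below in OE replicate 2 only, at -0.13 against 0.01. Both OE libraries were above both NC libraries for 15 of 21, 3 of 12 and 1 of 5 members of groups 2 to 4, 5 to 6 and 7 to 9. The shares over all genes there were 30.7%, 24.4% and 10.2%. By this count the members of groups 5 to 6 were near the share of all genes, and groups 7 to 9 held too few members to compare. Cyclic loess normalization, which evens out such a dependence on level, gave member medians of 0.40 and 0.44 in OE replicates 1 and 2, against -0.02 and 0.01 over all genes, and 18 members above both NC libraries in each OE library (19.2% of all genes).

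**Figure D2:**
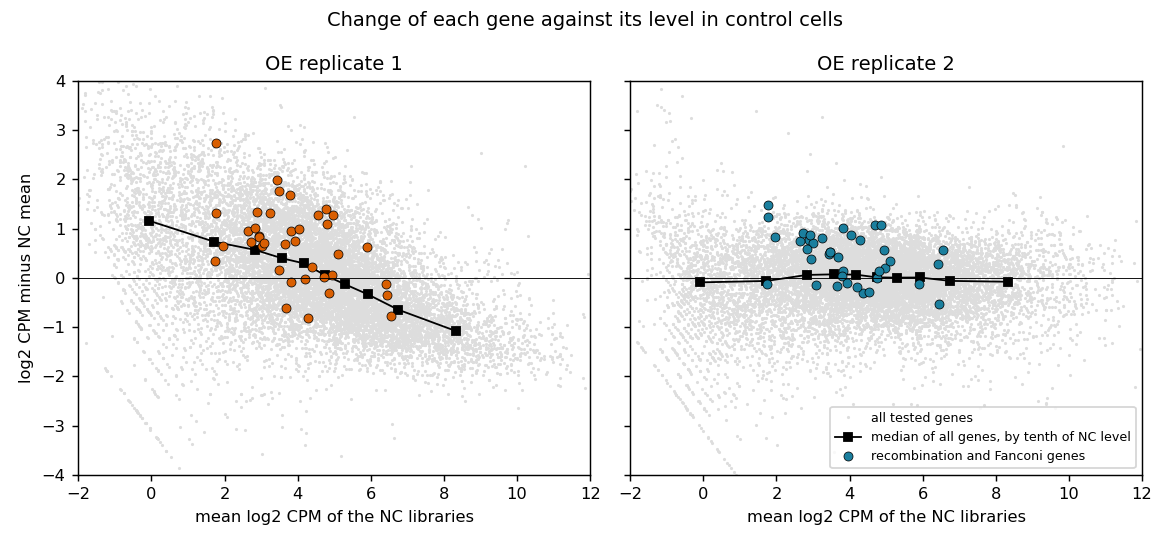
The x axis is the mean log2 CPM of the NC libraries and the y axis is log2 CPM minus that mean, for OE replicate 1 on the left and OE replicate 2 on the right; grey points are all tested genes, black squares the medians of the 10 groups by NC level, and coloured circles the 38 members (a few grey points lie outside the axes). The black line falls from 1.16 to -1.08 on the left and stays between -0.09 and 0.07 on the right, and the members' medians are 0.72 and 0.50.

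The promoters of these genes were searched for letters that go with expression in cycling cells, as a description. The part of such letters in the footprint values was not tested. RefSeq gave a window from 250 bases before to 50 bases after the start for 33 of the 38 members (build GRCh38.p14; none for FANCI, NBN, RMI2, WRN and RAD54B). The core of the site bound by E2F factors, which drive genes of DNA synthesis, was searched as GCGGGAA on both strands. It was in the window of 16 members (48.5%), against 13.1% of 10006 tested genes with a window and 6.55% of all 35116 windows. Stretches around it are shown for 6 members with both OE libraries above both NC libraries, 5 of them with the letters before every listed start, and BRCA1 before 1 of its 2 listed starts; capitals mark the match on the gene's strand, which is TTCCCGC where the other strand reads GCGGGAA.
FANCL, chr2:58241397-58241445, minus strand, 99 bases before the start: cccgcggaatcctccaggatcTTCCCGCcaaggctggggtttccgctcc
FANCG, chr9:35079999-35080047, minus strand, 84 bases before the start: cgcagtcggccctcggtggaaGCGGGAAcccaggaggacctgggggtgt
FANCC, chr9:95317727-95317775, minus strand, 45 bases before the start: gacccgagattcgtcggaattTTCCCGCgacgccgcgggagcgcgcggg
RAD54L, chr1:46247618-46247666, plus strand, 49 bases before the start: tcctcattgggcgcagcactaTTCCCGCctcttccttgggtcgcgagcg
BLM, chr15:90717251-90717299, plus strand, 74 bases before the start: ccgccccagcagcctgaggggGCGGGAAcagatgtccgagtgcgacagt
BRCA1, chr17:43125384-43125432, minus strand, 47 bases before the start: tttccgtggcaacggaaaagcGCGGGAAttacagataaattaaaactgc

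The match is a description of these windows and not a bound site. Of the 16 members with GCGGGAA, 12 were above both NC libraries in each OE library, with a median log2 fold change of 0.73, and of the 17 without it 7 were, with a median of 0.68. Among all tested genes 23.2% of those with GCGGGAA and 19.4% of those without were higher in both OE libraries, with medians of 0.14 and 0.09. Other letters searched on both strands were in shares of members closer to those of the tested genes. TTTGAA, the cell cycle homology region of genes active before mitosis, was in 3 members (9.09%, against 13.6% of tested genes). CCAAT, the core bound by NF-Y, was in 14 members (42.4%, against 43.4%), and CCGGAAG, bound by ETS factors, was in 10 members (30.3%, against 22.8%). None of these motifs contains another, and the letters were chosen after the members' values were known.

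The Fanconi core complex is the ubiquitin ligase of the pathway, listed here with the ubiquitin-conjugating enzyme UBE2T. Of its 9 listed members, 7 were above both NC libraries in each OE library (19.9% of all tested genes). The share was 30.7% over all genes in groups 2 to 4 by NC level, where most of the 9 sat. The median of these 9 was 0.84 in OE replicate 1 and 0.52 in the other OE library. FANCL, the RING subunit that carries out the ligation, had 8.86 and 9.97 CPM in NC and, with the METTL14 plasmid, 23.5 and 16.6 CPM, or 9.41 ± 0.783 against 20.1 ± 4.86 CPM (SD, n = 2 each). Its groups did not overlap, and the log2 fold change was 1.09 (SE 0.35; Benjamini-Hochberg adjusted p = 0.734, edgeR quasi-likelihood). FANCM, the DNA translocase that anchors the complex on DNA, had 7.26 and 7.74 CPM in NC versus 13.5 and 13.9 CPM under OE. Its OE libraries were as close to each other as its NC libraries, with a log2 fold change of 0.87 (SE 0.33).

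FANCB, which pairs with FANCL in the catalytic part, had 5.61 and 6.74 CPM in the NC pair against 12.1 and 10.4 CPM in the OE pair. FANCA, of the part that binds FANCG, had 26.5 and 29.6 CPM in NC and, with the METTL14 plasmid, 59.7 and 31.0 CPM, so that OE replicate 2 lay just above NC. FANCG, the partner of FANCA, had 34.5 and 33.8 CPM in NC versus 47.6 and 43.2 CPM under OE. These 3 genes had log2 fold changes of 0.86, 0.69 and 0.41, with the even OE values in FANCB and FANCG and the uneven ones in FANCA. FANCC had 8.09 and 7.03 CPM in the NC pair against 13.7 and 9.90 CPM in the OE pair. FANCE, which binds FANCC and FANCD2, had 12.2 and 9.97 CPM in NC and, with the METTL14 plasmid, 12.3 and 15.9 CPM, so that OE replicate 1 was only just above NC replicate 1.

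The remaining genes of this step overlapped between the groups, with OE replicate 1 below both NC libraries and OE replicate 2 above them. FANCF, an adaptor of the core complex, had 13.6 and 12 CPM in NC versus 8.28 and 17.2 CPM under OE, with a log2 fold change at 0. UBE2T had 94.0 and 93.9 CPM in the NC pair against 55.2 and 139.6 CPM in the OE pair, below NC in the first OE library and above it in the second. The substrates of the ligase, FANCD2 and FANCI, which clamp DNA as a pair, overlapped as well. FANCD2 had 60.8 and 58.7 CPM in NC and, with the METTL14 plasmid, 92.2 and 54.6 CPM. FANCI had 81.9 and 88.0 CPM in NC versus 77.6 and 103 CPM under OE. Their log2 fold changes were 0.30 (SE 0.38) and 0.09 (SE 0.33), and their higher libraries were different ones.

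Genes of end resection trim the break to single strands. Of these 4 members, 0 were higher in each OE library (19.9% of all tested genes). Their medians were at 0.15 and -0.15 (OE replicates 1 and 2). MRE11, the nuclease of the MRN complex, had 18.8 and 22.7 CPM in the NC pair against 24.3 and 16.7 CPM in the OE pair, one on either side of NC. NBN, the subunit that links the complex to damage signalling, had 28.3 and 33.4 CPM in NC and, with the METTL14 plasmid, 32.2 and 45.3 CPM. RBBP8 (CtIP), the cofactor that starts MRE11 cutting, had 26.2 and 27.9 CPM in NC versus 71.9 and 27.2 CPM under OE: OE replicate 2 lay within the NC range and OE replicate 1 was far above it. RAD50, the ATPase that bridges the ends, had 66.0 and 114 CPM in the NC pair against 68.2 and 60.4 CPM in the OE pair. The row used was ENSG00000113522, and a second row with the symbol RAD50, ENSG00000283782, had 24.6 and 5.74 CPM in NC and, with the METTL14 plasmid, 4.85 and 22.8 CPM. With both rows summed, RAD50 had 90.5 and 119.6 CPM in NC versus 73.0 and 83.2 CPM under OE, so that both OE libraries were below both NC libraries, with a log2 fold change of -0.43.

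BRCA mediators, which load the recombinase, had medians of 1.28 in OE replicate 1 and 0.12 in the other OE library. Of these 6 members, 3 were higher in each OE library (19.9% of all tested genes). Over all genes in groups 2 to 4 and 5 to 6 by NC level, where the 6 sat, the shares were 30.7% and 24.4%. BRCA1, a ubiquitin ligase that promotes resection and recruits PALB2, had 28.4 and 34.2 CPM in the NC pair against 75.6 and 35.7 CPM in the OE pair. Its partner BARD1 had 23.5 and 22.9 CPM in NC and, with the METTL14 plasmid, 56.5 and 19.1 CPM. BRCA2, which loads the recombinase, had 12.4 and 15.4 CPM in NC versus 44.5 and 14.2 CPM under OE. In these 3 genes OE replicate 1 was at 2.42, 2.43 and 3.21 times NC, while OE replicate 2 was at 1.15, 0.825 and 1.03 times NC, within or near the NC range. PALB2, the bridge between BRCA1 and BRCA2, had 10.6 and 14.7 CPM in the NC pair against 20.3 and 11.1 CPM in the OE pair. OE replicate 1 was again the highest library, and OE replicate 2 lay within the NC range. The differences between the OE libraries of BRCA2 and BARD1, 1.63 and 1.56 on the log2 scale, were with those of RMI2, MUS81 and RAD52 the widest among the members.

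BRIP1 (FANCJ), the helicase that binds BRCA1, was even across the OE libraries, with 15.6 and 17.2 CPM in NC and, with the METTL14 plasmid, 32.8 and 29.9 CPM. That is 16.4 ± 1.19 against 31.4 ± 2.06 CPM (SD, n = 2 each) and a log2 fold change of 0.94 (SE 0.28), with a Benjamini-Hochberg adjusted p of 0.734 in edgeR's quasi-likelihood fit. RAD52, which anneals single strands and acts as a back-up mediator, had the highest log2 fold change among the members, 2.20 (SE 0.61; adjusted p = 0.734 by the same test). It had 3.35 and 3.22 CPM in NC versus 22.5 and 7.91 CPM under OE. Both OE libraries lay well above NC, at 6.64 and 2.36 times NC as taken from the log2 CPM differences. They differed from each other by 1.49 on the log2 scale.

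The recombinase paralogs, which stabilise the filament, were at medians of 0.65 and 0.91 (OE replicates 1 and 2). Of these 5, 3 were higher in each OE library (19.9% of all tested genes, and 30.7% of those in groups 2 to 4, where most of the 5 sat). XRCC3, which pairs with RAD51C, had 2.88 and 3.69 CPM in the NC pair against 8.28 and 9.31 CPM in the OE pair, a log2 fold change of 1.42 (SE 0.42). RAD51D had 6.44 and 6.45 CPM in NC and, with the METTL14 plasmid, 10.8 and 12.2 CPM, and its partner XRCC2 had 4.17 and 3.40 CPM in NC versus 6.0 and 6.78 CPM under OE. In these 3 genes the OE libraries lay close together and OE replicate 2 was the higher. RAD51C had 27.0 and 25 CPM in the NC pair against 26.4 and 54.7 CPM in the OE pair, with OE replicate 1 inside the NC range. RAD51B overlapped, at 2.32 and 4.46 CPM in NC and, with the METTL14 plasmid, 4.09 and 2.94 CPM. The row used was ENSG00000185379, and a second row with the symbol RAD51D, ENSG00000267618, had 0.360 and 1.17 CPM in NC, 13.8 in OE replicate 1 and 0 in the other OE library; with both rows summed RAD51D had 24.6 and 12.2 CPM in OE and a log2 fold change of 1.35. The translocase RAD54L, which helps strand invasion, had 14.1 and 13.8 CPM in NC versus 27.1 and 15.4 CPM under OE. Its relative RAD54B had 17.5 and 18.9 CPM in the NC pair against 17.8 and 16 CPM in the OE pair, with no side taken.

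The dissolution complex, in which the helicase BLM, the topoisomerase TOP3A and the binding proteins RMI1 and RMI2 separate joined chromosomes without crossing over, was split between the OE libraries. TOP3A had 31.1 and 26.6 CPM in NC and, with the METTL14 plasmid, 23.1 and 60.6 CPM. RMI1 had 14.1 and 13.7 CPM in NC versus 13.0 and 28.1 CPM under OE. RMI2 had 23.1 and 16.3 CPM in the NC pair against 11 and 33.1 CPM in the OE pair. All 3 were below both NC libraries in OE replicate 1 and above both in OE replicate 2, where they stood at 2.10, 2.01 and 1.70 times NC. BLM differed, with 7.21 and 6.74 CPM in NC and, with the METTL14 plasmid, 14.2 and 10.5 CPM, a log2 fold change of 0.82 (SE 0.37). WRN, a RecQ helicase related to BLM, had 14.4 and 15.7 CPM in NC versus 25.5 and 13.9 CPM under OE, above NC in the first OE library and just below it in the second.

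Nucleases that cut joined or crosslinked DNA were at medians of 1.33 and 0.53 (OE replicates 1 and 2). Of these 5 genes 4 were higher in each OE library. The share was 19.9% over all tested genes and 30.7% over those in groups 2 to 4 by NC level. MUS81, the catalytic subunit of a structure-specific nuclease, had 12.1 and 9.44 CPM in the NC pair against 42.6 and 15 CPM in the OE pair. EME1, its non-catalytic partner, had 9.01 and 5.98 CPM in NC and, with the METTL14 plasmid, 18.7 and 12.7 CPM. Both subunits were above NC in both OE libraries, with log2 fold changes of 1.41 (SE 0.56) and 1.06 (SE 0.41) and OE replicate 1 the higher. FAN1, a nuclease recruited by ubiquitinated FANCD2, had 10.5 and 11.5 CPM in NC versus 37.5 and 15.9 CPM under OE, a log2 fold change of 1.27 (SE 0.49). GEN1, which resolves Holliday junctions, had 8.75 and 7.21 CPM in the NC pair against 12.6 and 13.1 CPM in the OE pair, with the OE libraries close together. SLX4, the scaffold that holds several of these nucleases, had 8.81 and 7.86 CPM in NC and, with the METTL14 plasmid, 13.7 and 7.55 CPM, and overlapped. For each of MUS81, EME1, FAN1 and GEN1 the Benjamini-Hochberg adjusted p was 0.734 (edgeR quasi-likelihood).

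Some members share their locus with another protein-coding gene in RefSeq, and the sources used here do not give whether the counting used strand. EFEMP2, which overlaps MUS81, had 0.309 and 0.410 CPM in NC, but 10.7 in OE replicate 1 and 0.136 CPM in the other OE library. ZNF276, which overlaps FANCA, had 9.01 and 13.3 CPM in NC, but 64.8 in OE replicate 1 and 11.9 CPM in the other OE library. AOPEP, which overlaps FANCC, had 17.9 CPM in OE replicate 1, above its 7.93 and 6.45 CPM in NC. ERC1, which overlaps RAD52, had 33.1 and 42.1 CPM in NC, 53.7 in OE replicate 1 and 15 CPM in the other OE library. MTMR10, which overlaps FAN1, had 14 and 11.5 CPM in NC, 19.6 in OE replicate 1 and 11.6 CPM in the other OE library. In these 5 neighbours, as in MUS81, FANCA, FANCC, RAD52 and FAN1, OE replicate 1 was the highest library, while in OE replicate 2 none of the 5 was above both NC libraries. VRK2, which overlaps FANCL, was above NC in both OE libraries as FANCL was, at 26.5 and 25.6 CPM in NC versus 30.9 and 38 CPM under OE, and so were POLG beside FANCI and ANKRD49 beside MRE11. Below NC in both OE libraries were LRRC41 beside RAD54L, FSBP beside RAD54B and HNRNPK beside RMI1. LRRC59 beside EME1, KLC1 beside XRCC3 and SMC6 beside GEN1 overlapped between the groups, with LRRC59 at 235 and 229 CPM in NC versus 90.7 and 259.9 CPM under OE. The part of shared reads in the members' values was not tested.

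A further list held 59 genes of the same pathways, all of them tested. Its medians and its shares of genes whose groups did not overlap lay between those of the members and of all tested genes. It had 21 genes higher in each OE library (35.6%, against 19.9% of all tested genes) and 4 lower (6.78%, against 20.4%). The median log2 fold change was 0.36, with medians of 0.42 and 0.25 in OE replicates 1 and 2. In the same edgeR fit 0 of the 59 passed (0% of all genes). An unadjusted p below 0.05 was reached by 3 of the 59, beside 5.5% of all genes, so that count was near the background. The highest fold change of a single row belonged to MCM8, a helicase of recombination, with 4.43 and 12.5 CPM in NC versus 32.0 and 43.1 CPM under OE. This gene has another row, at 25.3 and 26.6 CPM in the NC pair against 23.1 and 10.6 CPM in the OE pair, and the rows lay on opposite sides of NC. With both rows summed MCM8 had 29.7 and 39.0 CPM in NC versus 55.1 and 53.7 CPM under OE, a smaller difference. PSMC3IP, a recombinase cofactor, had 17.2 and 16.5 CPM in NC and, with the METTL14 plasmid, 66.6 and 20.4 CPM. ZGRF1, a helicase of crosslink repair, had a log2 fold change of 1.02 (SE 0.54). On the lower side SEM1, a small acidic partner of BRCA2 that is also a proteasome subunit, had 414 and 415 CPM in NC versus 142 and 220.3 CPM under OE. BABAM1, of a BRCA1-associated complex, had a log2 fold change of -0.34 (SE 0.30), and SLX1A, the nuclease partner of SLX4, had -0.30 (SE 0.30); SLX1A shares its sequence with SLX1B, and their values were nearly equal.

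Lists of neighbouring processes are given beside the members as a description, with no test of a difference. DNA replication genes (50 tested) had medians of -0.34 in OE replicate 1 and 0.59 in the other OE library, so their OE replicate 2 value was near the 0.50 of the members and their OE replicate 1 value on the other side of NC. Their NC level was higher, with a median log2 CPM of 5.48 against 3.8 for the members. With cyclic loess normalization the replication medians were -0.15 and 0.62. End joining genes (12 tested), which repair breaks without a template, had medians of 0.44 and 0.08. The median log2 fold change was 0.63 for end joining, near the 0.64 of the members, and 0.29 for replication. It was above 0 for 58.3% of the end joining genes and 74% of the replication genes, against 89.5% of the members. Both OE libraries were above both NC libraries for 9 replication genes (18%) and 4 end joining genes (33.3%), against 19.9% of all tested genes. Both were below for 1 of each (2% and 8.33%), against 20.4% of all tested genes.

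**Figure D3:**
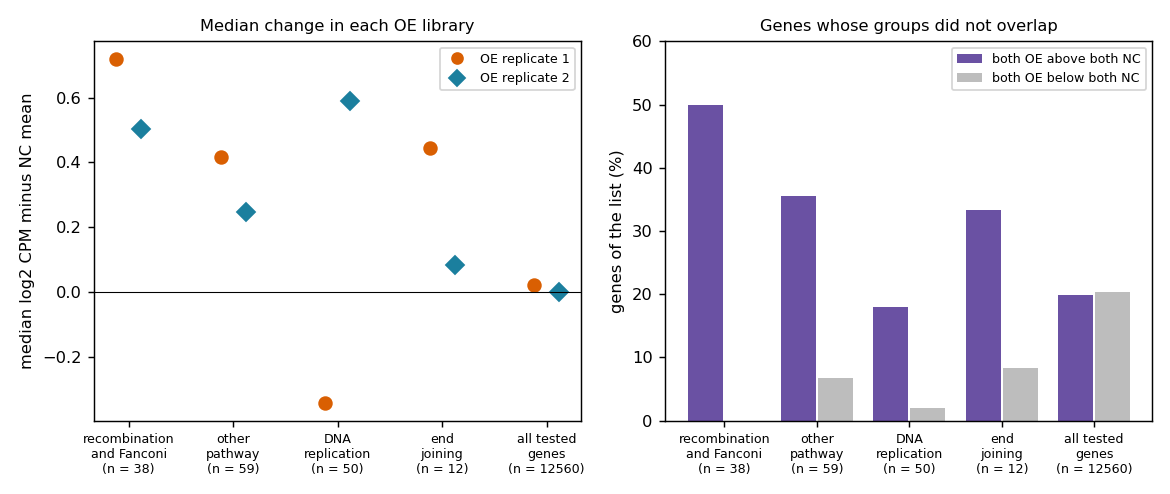
The left panel gives, for each gene list, the median of log2 CPM minus the NC mean in OE replicate 1 (orange circles) and OE replicate 2 (blue diamonds), and the right panel the percentage of each list with both OE libraries above (purple) or below (grey) both NC libraries. The members have medians of 0.72 and 0.50 and bars of 50% and 0%, and all tested genes have 19.9% and 20.4%.

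With a single OE library compared with the NC pair, calls were made, with the spread taken from NC alone, since the lone OE library is assumed to vary like that group. Without OE replicate 1, the edgeR fit (adjusted p below 0.05) called 16 members higher (16.8% of all genes) and 1 lower (17.3% of all genes). Without OE replicate 2 it called 23 members higher (30.1% of all genes) and 3 lower (30.8% of all genes). The median log2 fold change of the members was 0.50 (all genes -0.01) without OE replicate 1 and 0.69 (all genes 0.02) without the other OE library. The median of the members was above that of all genes under every setting tried, by 0.41 (cyclic loess) to 0.67 (without OE replicate 2) on the log2 scale. With library totals as the only scaling the median of all genes moved to 0.40, and the members were at 1.01, that is 0.61 above it, with 24 members above both NC libraries in each OE library (30.2% of all genes). On all 4 libraries DESeq2 called 0 members, with 0.0876% of all genes called higher and 0.111% lower. The likelihood ratio test called 0 members (0.0876% of all genes higher, 0.143% lower), and so did the fit with the replicate number as a block (0.104% higher, 0.0876% lower).

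**Figure D4:**
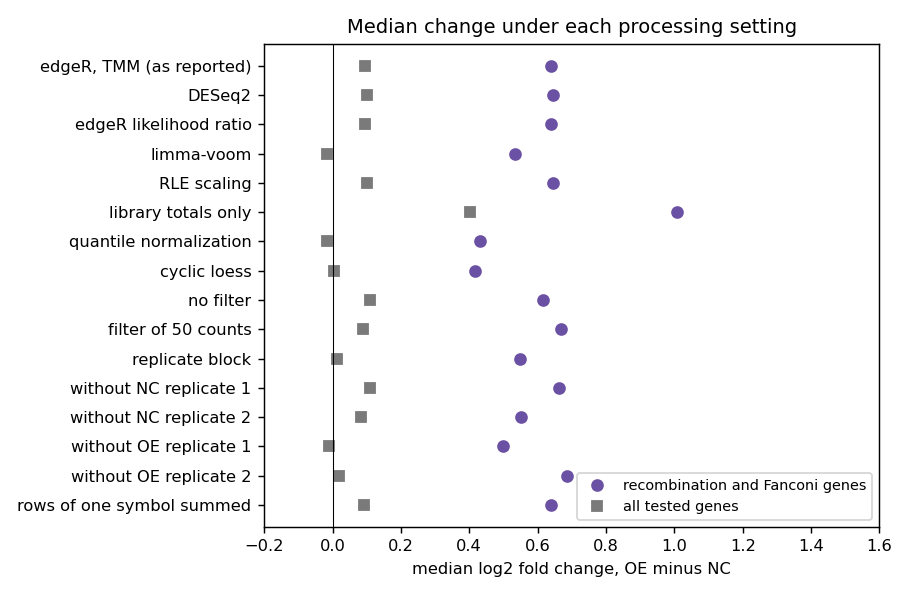
The x axis gives the median log2 fold change of OE over NC for the 38 members (purple circles) and all tested genes (grey squares) under each processing setting on the y axis. The purple points run from 0.42 (cyclic loess) to 1.01 (library totals only), and each lies to the right of its grey point.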

How the data were processed

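The authors deposited 1 file per library with estimated counts per Ensembl gene, in a count column per the file headers; since 13.8% to 14.7% of values in a library held a fraction, these expected counts were rounded before testing. Tools named in the submitters' processing notes are fastp for reads, Bowtie2 and HISAT2, StringTie and RSEM, with build hg18; versions, annotation and strand setting: not given in the sources used here. Groups and replicate numbers come from the sample titles. In R 4.3.3, edgeR 4.0.16 kept genes by filterByExpr (minimum count 10, total 15), scaled by TMM and compared OE with NC by the quasi-likelihood test, Benjamini-Hochberg adjusted over 12560 genes and a threshold of 0.05; SE is the log2 fold change over the root of F. Log2 CPM used a prior count of 2. Ratios given as times NC were taken back from differences on that scale, so they deviate somewhat from ratios of the printed CPM. limma 3.58.1, DESeq2 1.42.0 and other scalings and filters were alternatives, and the steps were tested on simulated data. Replicate pairs differed by a chi-square of 13.1 (NC) and 332 (OE) per degree of freedom, so none was a repeated library. P-values measure the spread between 2 libraries a group, which limits what can be called. Named were METTL14, all members, and of the further pathway list the 3 genes of highest and the 3 of lowest fold change among those whose groups did not overlap; the members and lists were chosen with earlier results of these data known. No coding length was used here, so levels of single members are not compared with each other. A part of the naming rule that needed lengths was left out. The groups by NC level and the median NC levels of lists used CPM without division by length. A list gene without its current symbol in the files was matched by its older RefSeq name. Positions refer to GRCh38.p14 windows and not to the build of the counts.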

Additional observations from a re-analysis of the deposited data

How the results depend on the processing

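Of the 38 members, 32 kept the sign of their log2 fold change in the 11 other settings run on all 4 libraries, and their smallest adjusted p there was 0.176 (RAD52, DESeq2). The median of 0.64 was 0.43 with quantile normalization, 0.42 with cyclic loess and 1.01 with library totals. The count of members lower in each OE library was 0 and became 1 with quantile normalization, with cyclic loess and with summed rows, and 2 with no filter. Leaving out 1 library at a time, that count was 2 to 7, the members called numbered 0 to 26, and METTL14 had a log2 fold change of 0.99 to 3.24, with a Benjamini-Hochberg adjusted p of 4.02e-06 without OE replicate 1 and 2.01e-18 without OE replicate 2 (edgeR quasi-likelihood). DESeq2 called METTL14 at 2.54 (Benjamini-Hochberg adjusted p = 0.0495). With 1 library left out, the 2 to 7 members lower compare with 24.8% to 45.5% of all genes. Without either OE library, members and large shares of all genes were called, as given above. The count of members called there does not by itself set the members apart. Signs turned for members near 0. FANCF had 0.0068 with DESeq2, 0.0074 with RLE, 0.22 with library totals and 0.014 with a filter of 50 counts. UBE2T had -0.18 with limma-voom, -0.021 with quantile normalization and -0.096 with the replicate block. RMI2 had -0.24 with quantile normalization, -0.18 with cyclic loess and -0.011 with the replicate block. MRE11 had 0.36 with library totals and 0.021 with a filter of 50 counts, RAD51B had -0.17 with quantile normalization and -0.18 with cyclic loess, and RAD54B had 0.23 with library totals. With a library left out, ranges that crossed 0 were -0.67 to 0.42 for FANCF, -0.81 to 0.57 for UBE2T, -0.13 to 0.59 for FANCD2, -0.17 to 0.29 for FANCI, -0.31 to 0.19 for MRE11, -0.28 to 1.24 for BARD1, -0.18 to 0.64 for PALB2, -0.36 to 0.56 for RAD51B, -0.023 to 1.07 for RAD51C, -0.11 to 0.72 for WRN, -0.36 to 1.07 for TOP3A, -0.13 to 1.02 for RMI1, -0.88 to 0.75 for RMI2 and -0.14 to 0.68 for SLX4. The causes were not tested. The replicate numbers are not known to pair the libraries: deviations of same-numbered libraries had a correlation of -0.10 across genes. The replicate block gave a member median of 0.55 and called 0 members and 24 genes, where the fit without it called 0 genes and DESeq2 and the likelihood ratio test called 25 and 29. Ranks without division by coding length were not run. At 2 libraries a group, the unequal OE libraries limit every comparison here.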
